A study of Saccharomyces cerevisiae with 16 samples.

Results

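The transcripts of 7 genes that encode substrates of the chaperonin CCT were followed on 16 arrays of the budding yeast Saccharomyces cerevisiae. The genes are ACT1 for actin, TUB1 and TUB3 for alpha-tubulin, TUB2 for beta-tubulin, TUB4 for gamma-tubulin, and CDC20 and CDH1 for the WD-repeat activators of the anaphase-promoting complex. They were chosen by name, with earlier results of these data already known. Each had exactly 1 probe set among the 5498 that were tested, which stand for 5449 genes. Actin also had 3 control probe sets on the array.

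The chaperonin, known as CCT or TRiC, stacks a pair of rings of 8 related subunits and uses ATP to fold proteins held inside. Actin and the tubulins depend on it to fold and are its most abundant substrates. Cdc20 and Cdh1 fold into a propeller of WD repeats with its help, and then bind the anaphase-promoting complex (APC), a ubiquitin ligase, to mark mitotic proteins for destruction. CCT acts on proteins, and only transcripts were measured here.

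Each of 8 strains had 2 arrays, with cultures harvested at an optical density of 0.5 after growth at 30 °C. The wild-type strain (WT) was compared with 7 mutants in which 1 CCT subunit has glutamate in place of an aspartate. The labels give D96E in CCT1 (the gene also named TCP1) for MA1, D90E in CCT2 for MA2, D91E in CCT3 for MA3, D117E in CCT5 for MA5, D89E in CCT6 for MA6, D96E in CCT7 for MA7 and D98E in CCT8 for MA8. All 8 strains, WT included, carry the same background alleles (leu2, leu2-3, trp1, gal2, ura3-52, prb1-1122, pep4-3 and prc467) and a CBP tag on CCT6. The marker beside the tag is URA3 in 6 mutants, whose substituted subunit gene carries KanMX4, and is KanMX4 itself in MA6 and WT. Nothing in the labels says that the 2 arrays of a strain came from separate cultures, so p-values here reflect array-to-array spread alone, part of which may be technical.

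The deposited values are log2 levels per probe set, made comparable between arrays by the authors. Array medians over the tested probe sets ran from 10.46 to 10.50. The 5 a-cell markers lay between 8.69 (lowest value of BAR1) and 12.93 (highest of STE2). Of the 4 alpha-cell markers, MF(ALPHA)1 lay between 4.16 and 4.70 and MF(ALPHA)2 between 5.30 and 5.66, but STE3 reached 7.06 and SAG1 lay between 9.28 and 10.30. Several arrays opposed their labels or stood apart. URA3 opposed the genotype on 6 arrays, labelled WT replicate 2, MA2 replicate 2, MA5 replicate 1, MA6 replicates 1 and 2, and MA8 replicate 1. The lowest values of CCT2 were 10.47 (MA6 replicate 1) and 10.64 (MA1 replicate 1), against at least 12.93 elsewhere. CCT3 was low on the second arrays of the same strains, at 10.16 in MA1 and 10.22 in MA6, against a median of 12.27. WT replicate 1 resembled MA5 replicate 1 closely, and MA1 replicate 1 resembled MA6 replicate 1. A strain's name thus stands for its labelled arrays and no more.

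The client transcripts were among the steadier ones on these arrays. All 7 varied less over the 16 arrays than the median tested probe set: their SDs lay between 0.04 (ACT1) and 0.14 (TUB4), with a median of 0.08, against a median of 0.14 over all 5498. From the lowest to the highest array, ACT1 spanned 1.11-fold, CDC20 1.14-fold, TUB1 1.22-fold, TUB2 1.22-fold, CDH1 1.24-fold, TUB3 1.30-fold and TUB4 1.41-fold. A smaller SD than that of the member was found in 1.75% of the tested probe sets for ACT1, in 6.93% for CDC20, in 14.9% for TUB2, in 15.5% for TUB1, in 21.1% for CDH1, in 23.4% for TUB3 and in 48.7% for TUB4. SDs of bright and dim probe sets are not alike on arrays, so these shares describe the members without a test.

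**Figure D1:**
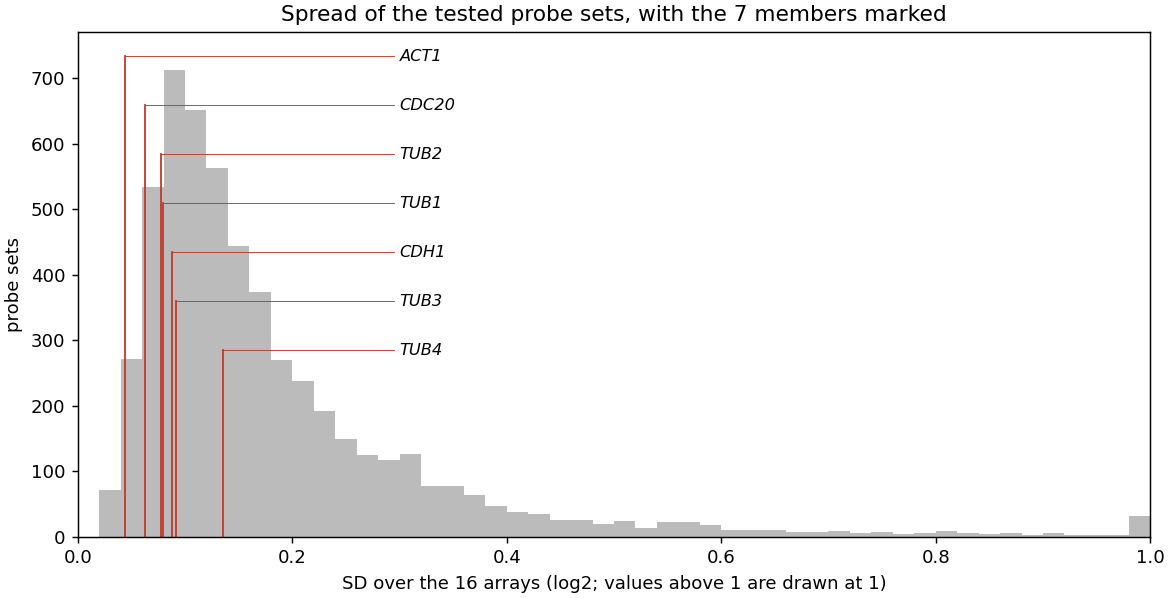
Histogram of the SD over the 16 arrays for the 5498 tested probe sets (x axis, log2 units; y axis, number of probe sets), with a red line at the SD of each member. ACT1, at 0.04, lies at the left edge and TUB4, at 0.14, close to the median of all probe sets.

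For each mutant against WT, which asks whether a CCT substitution alters expression, no member was called in any of the 7 strains by limma at an adjusted p under 0.05. The background was the same, with 0% of 5498 probe sets called in each of the 7 comparisons. At an unadjusted p under 0.05 there were 2 values among the 49 of members and strains: TUB1 in MA1, where 4.13% of all probe sets passed, and TUB4 in MA6, where 11.5% did. The shares over all probe sets were 0.746% in MA2, 4.69% in MA3, 0.327% in MA5, 8.97% in MA7 and 4.06% in MA8, and no member passed in those strains. All 7 comparisons use the same WT arrays, so values of different mutants are not independent of each other.

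The 95% intervals of the changes were not narrow beside the spans of the members over the 16 arrays. For ACT1, CDC20, TUB1, TUB2 and TUB4 they reached beyond the whole span, and for TUB3 and CDH1 they did not. Over all 7 mutants, the interval bound farthest from 0 corresponded to a 1.15-fold change for ACT1, 1.22-fold for CDC20, 1.23-fold for CDH1, 1.25-fold for TUB3, 1.27-fold for TUB2, 1.29-fold for TUB1 and 1.49-fold for TUB4. These bounds hold for single values without adjustment and assume that the arrays carry the right labels. The direction was lower than WT in 7 of 7 mutants for TUB1, TUB2, TUB4 and CDC20, in 5 for TUB3, in 3 for CDH1 and in 2 for ACT1. How many of all probe sets had 1 direction in 7 of 7 was not counted. The mutants share the WT arrays, and WT replicate 1 and MA5 replicate 1 were the 2 highest for those 4 genes. They were so for 23.4% of all probe sets. The median change of the 7 members was between -0.11 (MA1 and MA6) and -0.02 (MA5) on the log2 scale, beside medians over all tested probe sets from -0.05 (MA3) to -0.0002 (MA5).

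**Figure D2:**
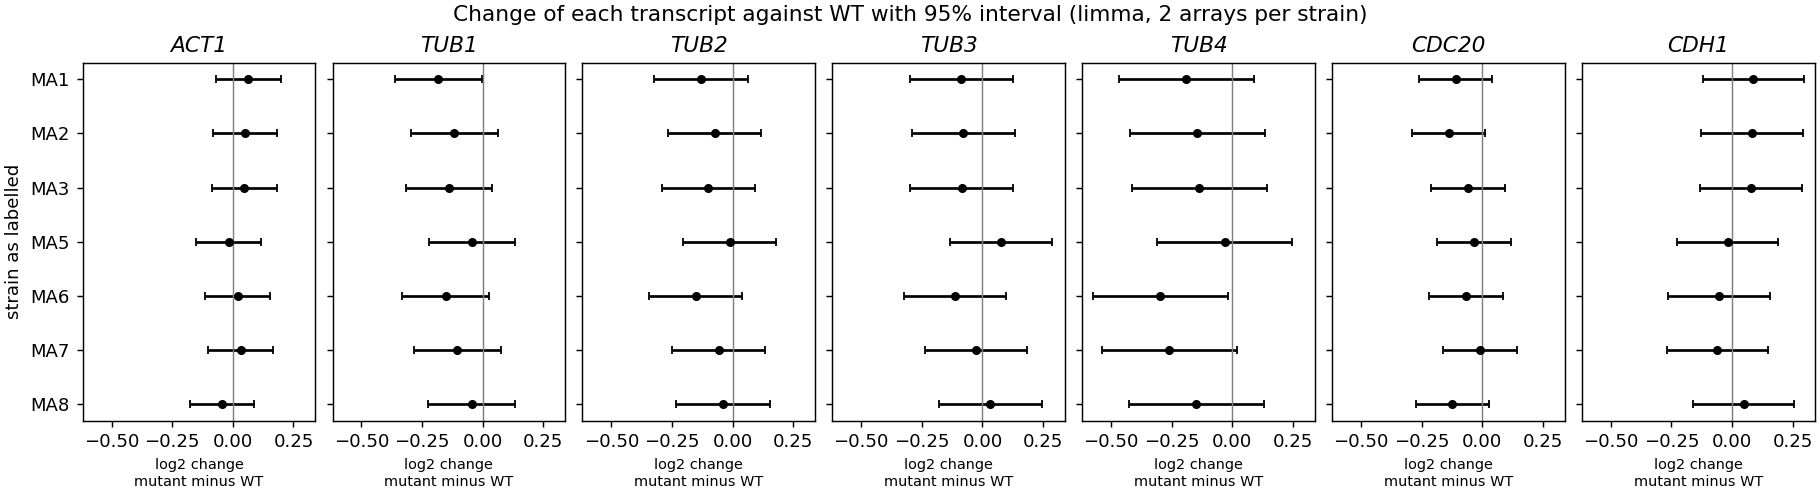
Log2 change of each member in each mutant against WT (x axis, mutant minus WT; y axis, strain as labelled), with the 95% interval of the limma fit over 16 arrays, 2 per strain. The intervals of ACT1 are the narrowest, and those of TUB1 in MA1 and TUB4 in MA6 alone stop short of 0, before any adjustment.

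Whether equivalent substitutions in different subunits differ, the question in the series' title, was asked with F tests. Neither the F test among the 7 mutants nor that among the 8 strains called a member or any other probe set (0% of 5498 each); at an unadjusted p under 0.05 they had 2.67% and 2.71% of all probe sets and 0 members. The smallest unadjusted p of a member was 0.34, for TUB4 among the 8 strains (limma adjusted p = 0.87). The 28 pairs of strains called 0 members, and 0% of the 153944 values over all probe sets. At an unadjusted p under 0.05 they had 3.89% of all values and 2 values of members, again TUB1 between WT and MA1 and TUB4 between WT and MA6. For each member the 8 strains were also put in order of their mean. The arrays of neighbouring strains overlapped in all 7 neighbouring positions of every member. Such neighbours have the closest means, and the share of all probe sets with this overlap was not counted. Strains farther apart in the order could separate, as MA8 and WT did for ACT1.

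Actin, the monomer of the microfilaments, was the steadiest member. ACT1 was 14.41 and 14.47 on the arrays labelled WT, 14.54 and 14.48 in MA1, 14.51 and 14.49 in MA2, 14.47 and 14.52 in MA3, 14.40 and 14.46 in MA5, 14.49 and 14.44 in MA6, 14.49 and 14.47 in MA7, and 14.39 and 14.41 in MA8. Both MA8 arrays were low and lay below both WT arrays, but the margin was very narrow. The deviation from the median was -0.0575 on MA8 replicate 2 and -0.0574 on WT replicate 1. Among the mutants, only MA5 overlapped MA8, and its first array was also low. By mean, MA8 was lowest at 14.40 ± 0.02 and MA1 highest at 14.51 ± 0.05 (SD, n = 2 arrays each), the pair of strains farthest apart, at a difference of 0.11 (limma adjusted p = 0.98). Against WT the change ran from -0.04 in MA8 to 0.06 ± 0.06 (SE) in MA1 (limma adjusted p = 0.65). The MA1 value was 0.03 without MA1 replicate 1 and also without WT replicate 1. The brightest probe set of each array lay between 14.77 and 14.997, so ACT1 sat near the top of the scale.

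The 3 control probe sets of ACT1, for the 5′ end, the middle and the 3′ end of the transcript, gave a second reading of the same RNA. They spanned 1.13-fold, 1.12-fold and 1.12-fold over the arrays, as little as the annotated probe set. They did not place the arrays in the same order. The array labelled MA8 replicate 1 was the lowest for the annotated probe set at 14.39 and the highest for the 3′ control at 14.13. Over the 16 arrays the annotated probe set correlated with the 5′, middle and 3′ controls at r = 0.11, 0.20 and 0.26 (rho = 0.15, 0.23 and 0.36), and the controls with each other at 0.70 to 0.83. Without the 4 arrays labelled WT, MA1, MA5 and MA6 replicate 1 the first 3 values were -0.32, -0.28 and -0.32. WT replicate 1 and MA5 replicate 1 were the lowest pair for the middle and 3′ controls, and deviated by -0.06 and -0.07 from the ACT1 median.

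Among the tubulins, arrays with the same label often differed as much as arrays of different strains. Alpha-tubulin pairs with beta-tubulin to form the dimer of which microtubules are built, and in yeast TUB1 supplies most of it and TUB3 a minor, near-identical form, so these 2 probe sets could share signal; whether they do was not tested. TUB1 was 13.20 and 13.13 on the arrays labelled WT, 12.93 and 13.03 in MA1, 13.03 and 13.06 in MA2, 12.98 and 13.07 in MA3, 13.21 and 13.03 in MA5, 12.97 and 13.05 in MA6, 13.02 and 13.10 in MA7, and 13.10 and 13.14 in MA8. Both MA1 arrays lay below both WT arrays, and this held for MA2, MA3, MA6 and MA7 too, while MA5 and MA8 overlapped WT. The same 2 WT arrays enter each of these comparisons. How many of all probe sets lie apart from WT in this way was not counted, for TUB1 or for any other gene. The change was largest in MA1, at -0.18 ± 0.08 (SE), from 13.16 ± 0.05 to 12.98 ± 0.07 (SD, n = 2 each; limma adjusted p = 0.61, unadjusted p = 0.046). It was -0.13 without the array labelled MA1 replicate 1.

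The minor alpha-tubulin gene followed a like pattern. TUB3 was 12.30 and 12.19 on the arrays labelled WT, 12.12 and 12.20 in MA1, 12.13 and 12.21 in MA2, 12.10 and 12.23 in MA3, 12.44 and 12.21 in MA5, 12.06 and 12.21 in MA6, 12.17 and 12.27 in MA7, and 12.30 and 12.26 in MA8. Every mutant overlapped WT, and the array labelled MA5 replicate 1 stood above all others. Strain means ran from 12.14 ± 0.11 in MA6 to 12.32 ± 0.16 in MA5 (SD, n = 2 each), and the MA6 change against WT was -0.11 ± 0.09 (SE; limma adjusted p = 0.54). It was -0.04 without MA6 replicate 1 and -0.06 without WT replicate 1.

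Beta-tubulin is encoded by 1 gene in this yeast. TUB2 was 13.30 and 13.21 on the arrays labelled WT, 13.04 and 13.21 in MA1, 13.15 and 13.21 in MA2, 13.12 and 13.18 in MA3, 13.31 and 13.17 in MA5, 13.01 and 13.19 in MA6, 13.16 and 13.23 in MA7, and 13.24 and 13.19 in MA8. The first arrays of MA1 and MA6 were the lowest and the first arrays of WT and MA5 the highest, whereas the second arrays of all 8 strains lay between 13.17 and 13.23. Strain means ran from 13.10 ± 0.12 in MA6 to 13.25 ± 0.07 in WT (SD, n = 2 each), a change of -0.15 ± 0.09 (SE; limma adjusted p = 0.41) that was -0.07 without the array labelled MA6 replicate 1.

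Gamma-tubulin nucleates microtubules at the spindle pole body and had the widest spread of the members. TUB4 was 10.74 and 10.65 on the arrays labelled WT, 10.38 and 10.64 in MA1, 10.42 and 10.68 in MA2, 10.59 and 10.53 in MA3, 10.77 and 10.56 in MA5, 10.27 and 10.52 in MA6, 10.46 and 10.41 in MA7, and 10.58 and 10.51 in MA8. Both arrays of MA3, MA6, MA7 and MA8 lay below both WT arrays, and so did both MA1 arrays, the second of them by a narrow margin. The share of all probe sets with such separation was not counted. In MA6 the change was -0.30 ± 0.13 (SE), from 10.69 ± 0.07 to 10.40 ± 0.18 (SD, n = 2 each; limma adjusted p = 0.40, unadjusted p = 0.039). It was -0.17 without the array labelled MA6 replicate 1, a move of over 1.5 times. In MA7, where both arrays were alike, the change was -0.26 (limma adjusted p = 0.53).

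**Figure D3:**
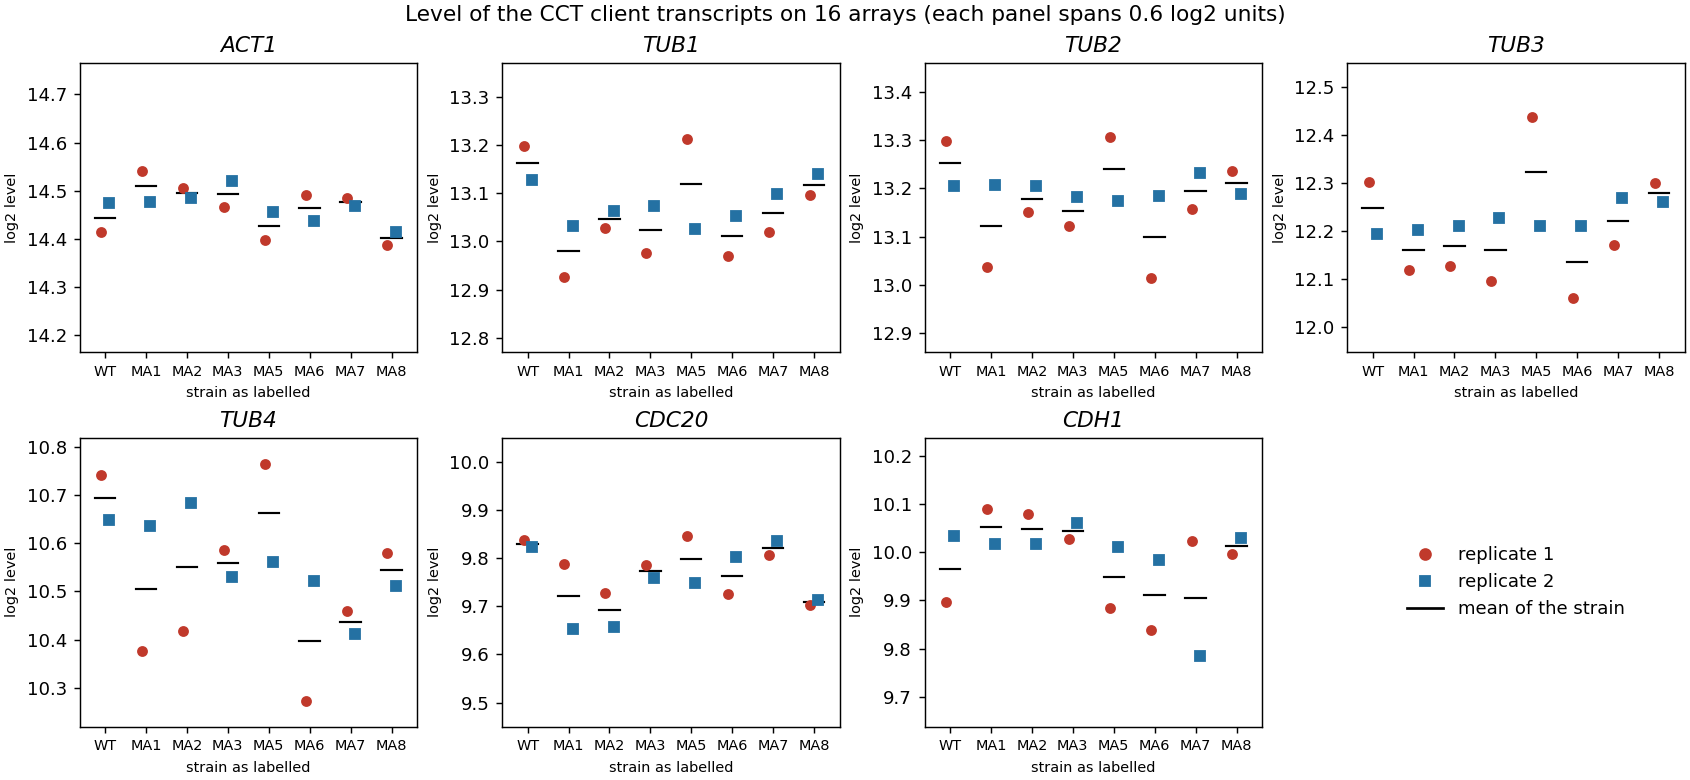
Log2 level of each member (y axis; every panel spans 0.6 log2 units) on the 2 arrays of each strain as labelled (x axis), with circles for replicate 1, squares for replicate 2 and a bar at the strain mean. The replicate 1 arrays of WT and MA5 are high and those of MA1 and MA6 low for the tubulins, while the squares of TUB2 form a nearly level row.

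Cdc20 activates the APC at the onset of anaphase, and its transcript is known to rise and fall with the cell cycle. CDC20 was 9.84 and 9.82 on the arrays labelled WT, 9.79 and 9.65 in MA1, 9.73 and 9.66 in MA2, 9.79 and 9.76 in MA3, 9.85 and 9.75 in MA5, 9.73 and 9.80 in MA6, 9.81 and 9.84 in MA7, and 9.70 and 9.71 in MA8. Both arrays of MA1, MA2, MA3, MA6 and MA8 lay below both WT arrays, and those of MA5 and MA7 overlapped them. Here too the share of all probe sets with such separation was not counted. The lowest mean was that of MA2, at 9.69 ± 0.05 against 9.83 ± 0.01 in WT (SD, n = 2 each), a change of -0.14 ± 0.07 (SE; limma adjusted p = 0.94). The lowest single values were on the arrays labelled MA1 replicate 2 and MA2 replicate 2. CDC20 was the only member whose same-label arrays tended to be closer than other pairs: the median absolute difference was 0.05 over the 8 same-label pairs and 0.06 over the other 112.

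Cdh1 takes over from Cdc20 at the end of mitosis and keeps the APC active through G1, and its transcript is known to be present throughout the cycle. CDH1 was 9.90 and 10.03 on the arrays labelled WT, 10.09 and 10.02 in MA1, 10.08 and 10.02 in MA2, 10.03 and 10.06 in MA3, 9.88 and 10.01 in MA5, 9.84 and 9.98 in MA6, 10.02 and 9.79 in MA7, and 9.997 and 10.03 in MA8. The lowest value was on MA7 replicate 2, whose partner was near the median of 10.02, so the low MA7 mean of 9.90 ± 0.17 (SD, n = 2) rests on 1 array. Against WT the change ran from -0.06 in MA7 to 0.09 ± 0.09 (SE) in MA1 (limma adjusted p = 0.69). The MA1 value was 0.02 without WT replicate 1 and 0.05 without MA1 replicate 1. Arrays of the same label differed by a median of 0.10 in CDH1, and other pairs by 0.06.

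Array by array, the tubulins shared much of their order. WT replicate 1 and MA5 replicate 1 were the 2 highest arrays for all 4 tubulins, with deviations from the 16-array medians between 0.09 and 0.23. For TUB1, TUB2 and TUB4 the 2 lowest were MA1 replicate 1 and MA6 replicate 1, with deviations down to -0.27 for TUB4 in MA6. Of all 5498 tested probe sets, 7.84% had these same 2 arrays highest and 2 lowest, and 7.86% had the reverse, so many other transcripts share this order. CDC20 was also highest on the first pair, at 0.06 and 0.07, and 23.4% of all probe sets were. These arrays were described in this way after their values were seen.

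**Figure D4:**
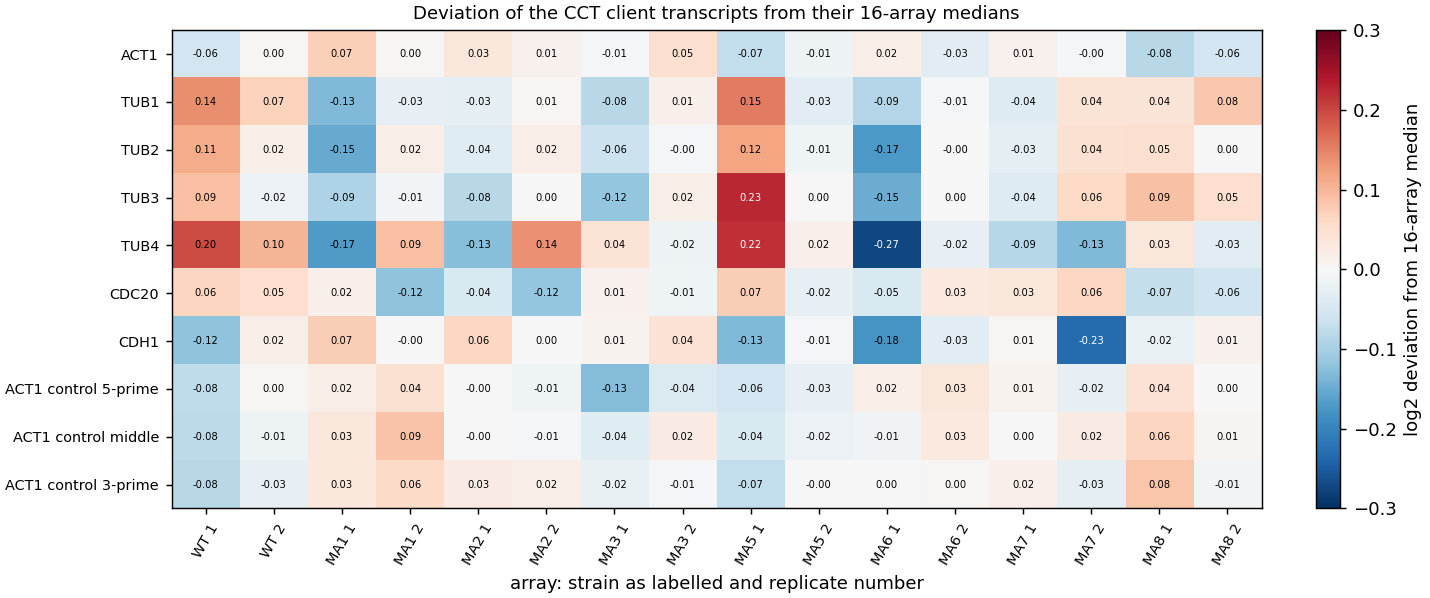
Deviation of each member, and of the 3 ACT1 control probe sets, from its 16-array median (colour and printed value, log2) on each array (columns, strain as labelled and replicate number). The tubulin rows are positive on WT 1 and MA5 1 and negative on MA1 1 and MA6 1.

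Over all 16 arrays the balance between TUB1, TUB2 and TUB3 varied less than their levels. The difference TUB1 minus TUB2 spanned 0.13 on the log2 scale over the 16 arrays (1.09-fold), and TUB3 minus TUB1 spanned 0.16 (1.12-fold), where TUB1 and TUB2 themselves spanned 0.29 each. Without WT, MA1, MA5 and MA6 replicate 1, TUB1 spanned 0.16 and TUB2 0.11. There TUB1 minus TUB2 still ran from -0.05 (MA1 replicate 2) to 0.08 (MA8 replicate 2) around its 16-array median, no less than TUB2. The gamma-to-beta difference, TUB4 minus TUB2, spanned 0.30 over all 16 arrays (1.23-fold). Across the 16 arrays TUB1, TUB2 and TUB3 correlated with each other at r = 0.88 to 0.89 (rho = 0.86 to 0.89), and at 0.71 to 0.87 without the 4 arrays just named. TUB4 correlated with them at 0.67 to 0.81, but at 0.00 to 0.20 without those 4 arrays. ACT1 correlated with the 4 tubulins at -0.72 to -0.55 over 16 arrays and at -0.55 to -0.10 without the 4. CDC20 and CDH1 correlated at -0.36 (rho = -0.23). These values describe arrays that share a normalization and resemble each other across labels, so no p is given.

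The genes whose levels followed each member most closely were sought among 5276 genes with a mean above 5.40, the 95th percentile of the means of the fission yeast (S. pombe) probe sets that the array also carries, by Pearson's r over the 16 arrays. For TUB1 they were UGP1 (UDP-glucose synthesis, r = 0.96), STT3 (the oligosaccharyltransferase, 0.96) and PMT1 (protein O-mannosylation, 0.94). For TUB2 they were PFF1 (a vacuolar membrane protease, 0.96), CDC60 (leucyl-tRNA synthetase, 0.96) and GSP1 (the Ran GTPase, 0.96). For TUB3 they were NPT1 (NAD salvage, 0.93), RPS9B (a small-subunit ribosomal protein, 0.93) and SEC27 (a COPI coat subunit, 0.93), and for TUB4 RNQ1 (a prion protein, 0.94), RAM2 (a prenyltransferase subunit, 0.93) and FPS1 (the glycerol channel, 0.93). Likeness was lower for the others: PTC6 (a mitochondrial phosphatase, 0.88), VPS72 (of the SWR1 complex, 0.87) and FUR4 (uracil permease, 0.85) for ACT1. For CDH1 they were HRB1 (mRNA export, 0.89), DMA2 (a ubiquitin ligase of mitotic exit control, 0.86) and VPS33 (vacuole fusion, 0.84). For CDC20 they were SYF2 (splicing, 0.77), YFH1 (frataxin, 0.74) and RAD52 (recombination, 0.74). None of the 21 is itself a member. The highest of so many correlations is high by selection, and no p is given. Without the 4 arrays that stand apart these values lay between 0.65 (RAD52) and 0.91 (RNQ1).

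The members' neighbours on the chromosomes gave correlations of both signs. ACT1 and TUB2 lie on either side of YPT1, a GTPase of secretion, on chromosome VI in the R64 gene table. Over the 16 arrays ACT1 and YPT1 correlated at 0.25 and TUB2 and YPT1 at -0.56, and YPT1 spanned 0.17 on the log2 scale. ACT1 and its other neighbour, YFL040W, correlated at 0.30, and TUB2 and RPO41, the mitochondrial RNA polymerase, at -0.76. TUB1 and TUB3 are on chromosome XIII, TUB4 on XII, and CDC20 and CDH1 on VII. The highest values were 0.82 for TUB1 with ALO1 and 0.75 for TUB4 with CRR1, followed by 0.52 for CDC20 with SNF4 and 0.50 for CDH1 with RPN14. The others were -0.03 for TUB3 with PGA3, -0.17 for TUB1 with YML083C, -0.23 for TUB3 with PHO84, -0.28 for CDH1 with ERP6 and -0.47 for TUB4 with ATG38. PHO84, the phosphate transporter next to TUB3, ranged from 5.80 to 12.16 while TUB3 spanned 0.38. On the arrays labelled MA3 replicate 1 and MA7 replicate 2 the median of the 317 probe sets of chromosome X was 0.71 and 0.77 above the 16-array medians. The medians of the members' chromosomes were between -0.09 and -0.03 there.

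Lists of genes that work with the members were compared in the same fits, and no gene of any list was called in any of the 7 mutants or in their mean (0% of 5498 probe sets each). Tubulin is folded and paired by cofactors, and gamma-tubulin works in a complex with Spc97 and Spc98 that Spc110 and Spc72 anchor at the spindle pole. Of these 10 genes, 5 were lower in MA7 at an unadjusted p under 0.05, where 8.97% of all probe sets passed in either direction. They were ALF1 and PAC2, tubulin cofactors (-0.73 and -0.39), CIN2, a regulator of tubulin folding (-0.51), and SPC110 and SPC72 (-0.26 and -0.23), each with a limma adjusted p of 0.53. The list's median was -0.24 in MA7, against -0.03 over all tested probe sets. ALF1 was 9.11 and 8.83 on the arrays labelled WT and 8.35 and 8.13 in MA7, with no overlap. An array labelled MA3 was low too: the list's median deviation was -0.18 on MA7 replicate 2 and -0.15 on MA3 replicate 1. On these arrays, those with high chromosome X, ALF1 (8.13 and 8.17) and CIN2 (9.22 and 9.50) were at their lowest. Any link between the 2 was not tested. Leaving out 1 array moved the count of 5 by over 1.5 times: it was 0 without MA7 replicate 2 and 1 without WT replicate 1. It was 3 without the 6 arrays that oppose their URA3 genotype, an alternative chosen after seeing the data.

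Among the 13 subunits of the APC, the median deviation stayed between -0.11 and 0.06 on every array, and SWM1 spread most, from 9.34 to 10.15. Of its regulators, AMA1, the meiotic activator of the APC and a relative of CDC20 and CDH1, was the most variable: it reached 7.98 in the first array of MA6 and 8.15 in that of MA1, had a median of 6.40, and was 5.82 on MA7 replicate 2. The 13 measured APC substrates and G2/M genes were high on 2 arrays: the list median reached 0.22 on MA5 replicate 1 and 0.16 on WT replicate 1, with 11 of 13 genes above their 16-array medians on each. There CLB2, the mitotic cyclin that the APC destroys, was 10.21 and 10.19, against a median of 9.67. The 10 G1/S genes had list medians of 0.27 and 0.19 there, with 8 of 10 above, although the G1 cyclin PCL1 was at its lowest (9.60 and 9.67). CDC20 deviated by 0.07 and 0.06 on them.

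Of the actin family, ARP3, a core of the branching Arp2/3 complex, and ARP4, of chromatin complexes, had the largest spreads, and both were highest on MA3 replicate 1 and MA7 replicate 2, at 13.53 and 13.62 for ARP3. The 2 most variable genes of each list and marker set numbered 32, of which 11 were highest on those 2 arrays, and 10 of these 11 are on chromosome X. They include MAD2 of the spindle checkpoint, MHP1 of the microtubules and PFD1 of prefoldin. Chromosome X holds 317 of the 5498 tested probe sets. The 32 genes were picked by their SD, which a rise on these 2 arrays enlarges, so the count is no separate evidence. The 15 actin-binding proteins deviated by list medians between -0.07 and 0.04 only. Among other WD-repeat proteins, STE4, the beta subunit of the pheromone G protein, and TUP1, a corepressor, had the order of the tubulins: both were highest on MA5 replicate 1 and WT replicate 1 and lowest on MA6 replicate 1 and MA1 replicate 1. STE4 spanned 11.24 to 11.98.

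The folding machinery varied too. The 8 CCT genes had a list median of 0.17 on WT replicate 1 and 0.20 on MA5 replicate 1, with 7 of 8 above their 16-array medians. The lowest medians were -0.24 on MA6 replicate 1 and -0.19 on MA1 replicate 1, with all 8 below. The list median was highest on MA7 replicate 2, at 0.31, and MA3 replicate 1, at 0.23, the arrays with high chromosome X. At least CCT3 of the 8 genes lies on that chromosome, so these 2 medians are not separate from its rise. Prefoldin and phosducin-like cofactors, which bring substrates to CCT or modulate it, had medians of 0.15 and 0.23 on WT and MA5 replicate 1, and 0.08 and -0.003 on MA6 and MA1 replicate 1. The a-cell markers had list medians of 0.29 on WT replicate 1 and 0.51 on MA5 replicate 1, with 5 of 5 above. The medians were -0.81 on MA1 replicate 1 and -0.77 on MA6 replicate 1, with 5 of 5 below. Other arrays stood out as well: the list median was 0.45 on MA8 replicate 2 and 0.31 on MA3 replicate 2. It was -0.38 on MA3 replicate 1 and -0.37 on MA7 replicate 2. On MA7 replicate 2 TUB1, TUB2 and TUB3 deviated by 0.04 to 0.06 and TUB4 by -0.13, so the order was not that of all the tubulins. The part of any of these in the tubulin levels was not tested.

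**Figure D5:**
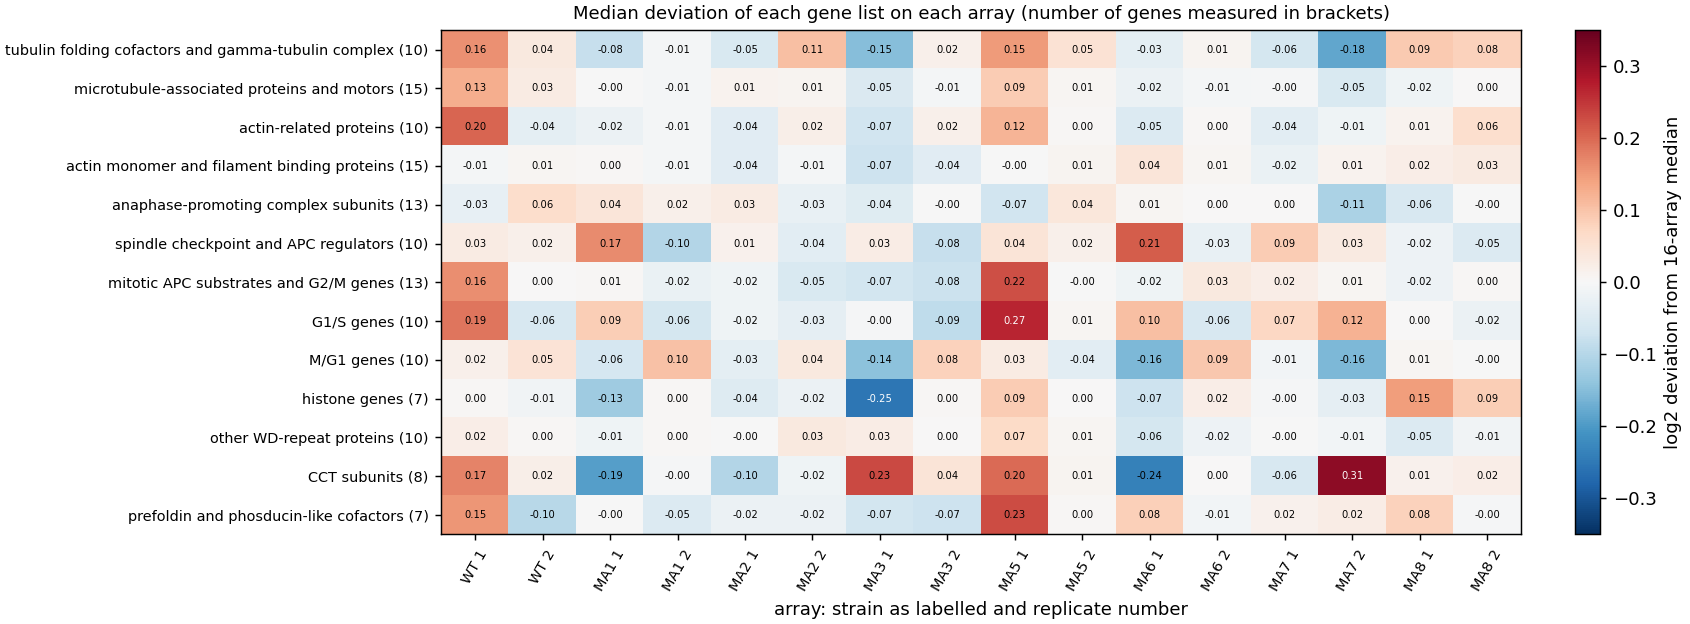
Median deviation of each gene list from the 16-array medians of its genes (colour and printed value, log2) on each array (columns, strain as labelled and replicate number), with the number of genes measured in brackets. The CCT and tubulin cofactor rows, among others, are positive on WT 1 and MA5 1, and the actin-binding and other WD-repeat rows are pale throughout.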

How the data were processed

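The authors deposited 1 log2 value per probe set and sample, from Affymetrix Yeast Genome 2.0 arrays. Partek and RMA are the tools that the submitters' processing notes list, without versions. RMA corrects background, normalizes between arrays and summarizes probes, so a shift shared by all genes is removed. No scanner files were used here.

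Of 10928 probe sets, 5498 were paired by the platform annotation with exactly 1 S. cerevisiae gene of the R64 gene table and were tested; 1746 were paired with S. pombe genes, 1 with several genes, and 3683 were not listed. A gene with several probe sets (47 genes) was represented by the brightest in lists. The sources used here give no genome build for the array, and no coordinates are given. Sequences were not used here, and a planned promoter motif search was not run.

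Titles gave the groups. Using all 16 arrays, 1 mean per strain was estimated with limma 3.58.1 in R 4.3.3 (lmFit, eBayes, 8 residual and 2.02 prior degrees of freedom), two-sided, with Benjamini-Hochberg adjustment over all tested probe sets and a threshold of 0.05. The fit was checked on simulated data. Descriptions used Python 3.11.15, pandas 2.3.3 and numpy 2.4.6. The number of arrays limits the precision. The members and lists were chosen with earlier results of these data known. Named genes were the members, label checks, the 3 likest genes of each member, chromosome neighbours and the 2 genes of largest SD in each list; others were chosen after their values were seen. Replicate numbers did not pair arrays: deviations of arrays with the same number correlated between -0.66 and 0.93 over 28 pairs of strains, and 7 were over 0.1. Alternatives covered normalization, dim or all probe sets, 1 probe set per gene, moderation, weights, a replicate block, strains alone and each array left out.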

Additional observations from a re-analysis of the deposited data

Results flagged for a closer look

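The probe set for act1 of the fission yeast S. pombe, which no comparison uses, had a mean of 6.18 over the 16 arrays of S. cerevisiae RNA. It lay between 6.01 and 6.37, above the 95th percentile of 5.40 of the S. pombe probe set means. It was brighter than 99.1% of them. Actin is a conserved protein, and whether S. cerevisiae ACT1 RNA binds these probes was not tested.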

How the results depend on the processing

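Over 29 alternative settings the change of each member in the strain where it was farthest from WT kept its sign, and no member was called in any (smallest limma adjusted p = 0.19). Only normalization, array weights and leaving out arrays of that strain or of WT could move this change. In the other settings its value was the same by construction, so its sign could not turn. Without WT replicate 1 the mean of the 7 mutants against WT turned sign for ACT1 (from 0.02 to -0.0083), TUB3 (from -0.04 to 0.014) and CDH1 (from 0.02 to -0.045). Leaving out each array in turn, these means lay between -0.0083 and 0.053 for ACT1, -0.094 and 0.014 for TUB3, and -0.045 and 0.092 for CDH1. Without the WT and MA5 arrays numbered 1, chosen after seeing the data, they were -0.0040 for ACT1 and -0.036 for CDH1. Each of these 3 means was within 1 SE of 0 with all arrays, and the cause was not tested. The ranges with 1 array left out were -0.24 to -0.13 for TUB1 in MA1, -0.24 to -0.07 for TUB2 in MA6 and -0.42 to -0.17 for TUB4 in MA6.

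Counts of called probe sets were 0 throughout for the F test among the mutants. Without the 6 arrays that oppose their URA3 genotype, chosen after seeing the data, there was 1 call in each of MA1, MA2, MA3, MA5, MA7 and MA8, 1 for their mean, 1 among the strains and 6 over the pairs of strains, all of them URA3, by which those arrays were chosen. MA6 could not be fitted then. Leaving out 1 array gave 0 to 2 calls over the 28 pairs, of RPL41A or CTF19. With the replicate block the values were the same by construction, since each strain has 1 array of each number. They were -0.18 for TUB1 in MA1 and -0.30 for TUB4 in MA6, for example, and no call changed. Array number and the closeness of ACT1 to the top of the scale limit what small changes can be seen.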
